A study of Mus musculus with 10 samples.

Results

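Aminoacyl-tRNA synthetases are the enzymes that attach each amino acid to its transfer RNA, the step on which every round of protein synthesis depends. The 39 genes described here are 20 cytosolic synthetase genes, 3 genes for the non-enzymatic scaffold proteins of the multi-synthetase complex (Aimp1, Aimp2 and Eef1e1) and 16 mitochondrial synthetase genes. They were chosen by name: every array probe set that the platform annotation assigns to a listed symbol, or to its newer form with a final 1, was taken, and the one brightest on average across the 10 arrays stood for the gene. The probe sets were taken without regard to genotype, but the list of genes was drawn up with earlier results of these data known. In all, 38 of the 39 genes had a probe set under their own name, of 18193 genes on the array, and all 38 passed the filter on dim values that left 12095 genes. Dars, the aspartate enzyme of the cytosol, was not matched and was not analysed here.

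The samples were 5 cultures labelled irf4+/+ and 5 labelled irf4-/-, all of MACS-purified mature B cells from the spleens of 12-week C57BL/6 littermates. Every sample, control or mutant, had been kept for 3 days with an anti-CD40 antibody (1 mg/ml as the labels give it) and IL-4 at 20 ng/ml, so no unstimulated samples enter the comparison. The allele behind irf4-/- is not given in the sources used. Nor do the labels tell whether replicates are separate mice, so p-values here gauge only the spread among these 10 samples, part or all of which may be technical. The comparison asks which transcripts of activated B cells differ when IRF4, a transcription factor that B cells induce on activation, is disrupted. Irf4 signal was 3899, 3745, 3758, 3978 and 3426 in Irf4+/+ and 2821, 2989, 2766, 2638 and 2748 in Irf4-/- replicates 1 to 5, a fall of 1.35-fold (adjusted p = 5.03e-06 in limma). Transcript was thus still measured in the Irf4-/- samples, and since the place of this probe set relative to the disrupted part is not given here, its value does not check the genotype labels.

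Mammalian cells keep separate synthetase sets for cytosol and mitochondria, both encoded in the nucleus, and the Gars and Kars genes supply enzyme to both compartments. Several cytosolic synthetases sit in the multi-synthetase complex with AIMP1, AIMP2 and EEF1E1 (also called AIMP3), and the others work outside it. Many cytosolic synthetase genes are known targets of ATF4, the transcription factor of the amino acid response, and growing lymphocytes raise their protein synthesis on activation.

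The promoters below are the member windows that hold the core of the C/EBP-ATF response element, through which ATF4 acts, and they are shown because these genes are among the cytosolic set whose values follow. Each window runs from 250 bases before to 50 bases after an annotated RefSeq start (assembly GRCm38.p6) and reads 5′ to 3′ on the gene's strand. Capitals mark the C/EBP-ATF core, TGATGNAA or its reverse complement TTNCATCA, and the E-box CACGTG, the element that MYC and related factors bind. The searched letters of these elements do not overlap one another in any of the windows.
Iars, chr13:49681880-49682179, plus strand: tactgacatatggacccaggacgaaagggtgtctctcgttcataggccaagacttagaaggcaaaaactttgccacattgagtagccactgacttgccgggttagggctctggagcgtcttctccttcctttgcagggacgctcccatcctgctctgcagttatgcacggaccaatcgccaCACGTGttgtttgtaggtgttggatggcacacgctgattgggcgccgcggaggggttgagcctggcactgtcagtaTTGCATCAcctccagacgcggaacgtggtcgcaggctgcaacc
Gars, chr6:55037751-55038050, plus strand: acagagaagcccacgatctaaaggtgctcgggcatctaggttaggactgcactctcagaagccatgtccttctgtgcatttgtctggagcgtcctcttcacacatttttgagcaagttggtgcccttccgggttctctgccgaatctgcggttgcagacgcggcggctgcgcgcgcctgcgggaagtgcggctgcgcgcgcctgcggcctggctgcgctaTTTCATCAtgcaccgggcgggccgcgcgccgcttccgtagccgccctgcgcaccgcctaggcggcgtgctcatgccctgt
Tars, chr15:11399609-11399908, minus strand: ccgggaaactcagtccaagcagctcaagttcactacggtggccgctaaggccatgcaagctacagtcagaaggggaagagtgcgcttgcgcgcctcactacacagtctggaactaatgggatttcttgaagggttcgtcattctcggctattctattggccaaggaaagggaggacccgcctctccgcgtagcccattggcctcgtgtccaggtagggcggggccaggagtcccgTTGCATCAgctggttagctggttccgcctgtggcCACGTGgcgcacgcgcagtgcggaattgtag
Yars, chr4:129189653-129189952, plus strand: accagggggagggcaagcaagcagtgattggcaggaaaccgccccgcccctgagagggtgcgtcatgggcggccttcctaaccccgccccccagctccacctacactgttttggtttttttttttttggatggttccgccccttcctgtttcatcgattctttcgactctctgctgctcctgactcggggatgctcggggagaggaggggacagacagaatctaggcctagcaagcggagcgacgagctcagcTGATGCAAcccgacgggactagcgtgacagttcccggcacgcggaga
Aars, chr8:111033592-111033891, plus strand: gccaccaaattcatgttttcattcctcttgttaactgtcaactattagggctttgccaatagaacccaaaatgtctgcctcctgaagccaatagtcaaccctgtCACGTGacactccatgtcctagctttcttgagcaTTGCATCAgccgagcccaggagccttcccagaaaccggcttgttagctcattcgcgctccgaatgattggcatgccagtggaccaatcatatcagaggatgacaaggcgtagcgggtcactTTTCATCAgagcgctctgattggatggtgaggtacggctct
Both strands were searched. The response-element core began 7 bases after the start in Iars, 30 bases before it in Gars, 15 before it in Tars, 3 after it in Yars, and 112 before and 9 after it in Aars. The E-box was present in Iars (69 bases before the start), Tars (19 after it) and Aars (146 before it), and outside the windows shown also in Farsb (39 before) and Ears2 (21 after).

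RefSeq promoter windows were found for 29 of the 38 genes, 31 windows in all. No window was found for Cars, Nars, Hars, Lars, Rars, Vars, Wars, Hars2 or Pars2, so the promoters of these genes were not searched. The response-element core was in 5 of 12 cytosolic windows, against 3.97% of all 32851 promoter windows of the same length, and in none of 15 mitochondrial and 4 scaffold windows. The E-box was in 4 cytosolic windows and 1 mitochondrial window, against 7.15% of all windows. The core of the interferon-stimulated response element was in the Qars window alone (3.44% of all windows), and that of the ETS-IRF composite element, which IRF4 binds with PU.1, in no member window (2.72%). A match is a description of letters and does not show a binding site, and the absence of a match says only that the letters are not in that window.

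Most cytosolic synthetase transcripts were lower in Irf4-/- than in Irf4+/+ B cells. Of the 38 members 24 were called, where 47.8% of all genes tested were, and 22 fell and 2 rose (adjusted p under 0.05 in limma, a linear model fitted over all genes with Benjamini-Hochberg adjustment), where 24.2% of all genes tested were called lower and 23.6% higher. In the cytosolic set 16 of 19 fell and the other 3 were not called, and all 19 had a negative log2 fold change. In the mitochondrial set 5 of 16 fell, 1 rose and 10 were not called, a share of falls near that of all genes tested. The scaffold genes went 3 ways: Eef1e1 fell, Aimp1 rose and Aimp2 was not called. The median log2 fold change was -0.49 for the cytosolic and -0.20 for the mitochondrial genes, beside 0.00 over all genes tested.

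These falls were moderate in size. Falls of at least 1.5-fold were counted for 11 members, 9 of them cytosolic, where 8.47% of all genes tested fell that far, and the steepest, in Iars, was 1.84-fold. For 19 members every Irf4-/- array lay below every Irf4+/+ array, beside 18.6% of all genes tested, and for 2 members every Irf4-/- array lay above, beside 17.5%. Fold changes are on the scale of log2(signal + 7.9), which understates changes of dim genes, and the arrays were scaled to one trimmed mean, so each change is relative to the rest of the transcriptome. In such bulk samples fewer cells of a type and less RNA per cell cannot be told apart.

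**Figure D1:**
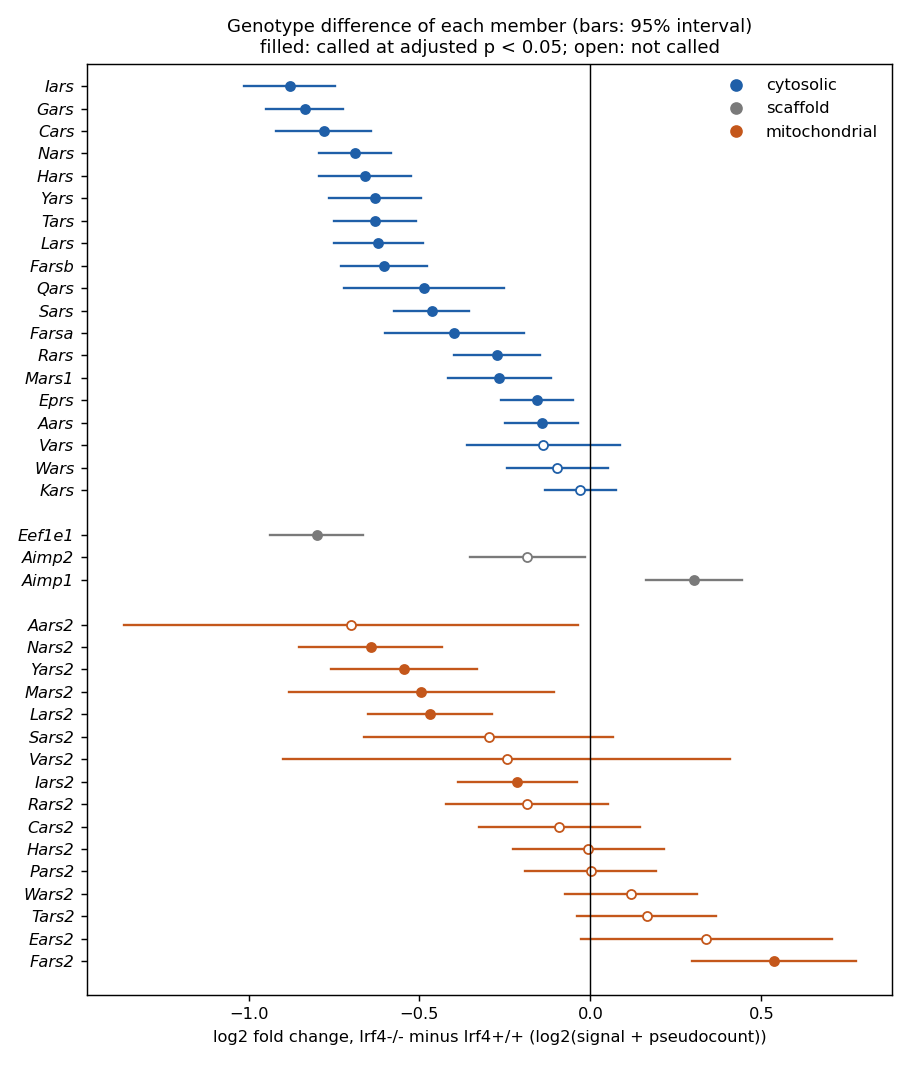
Log2 fold change (Irf4-/- minus Irf4+/+) of each of the 38 members on the horizontal axis, with its 95% interval, grouped as cytosolic, scaffold and mitochondrial; filled points were called at an adjusted p under 0.05 in limma. All 19 cytosolic genes lie left of 0, whereas the mitochondrial genes spread to both sides.

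**Figure D2:**
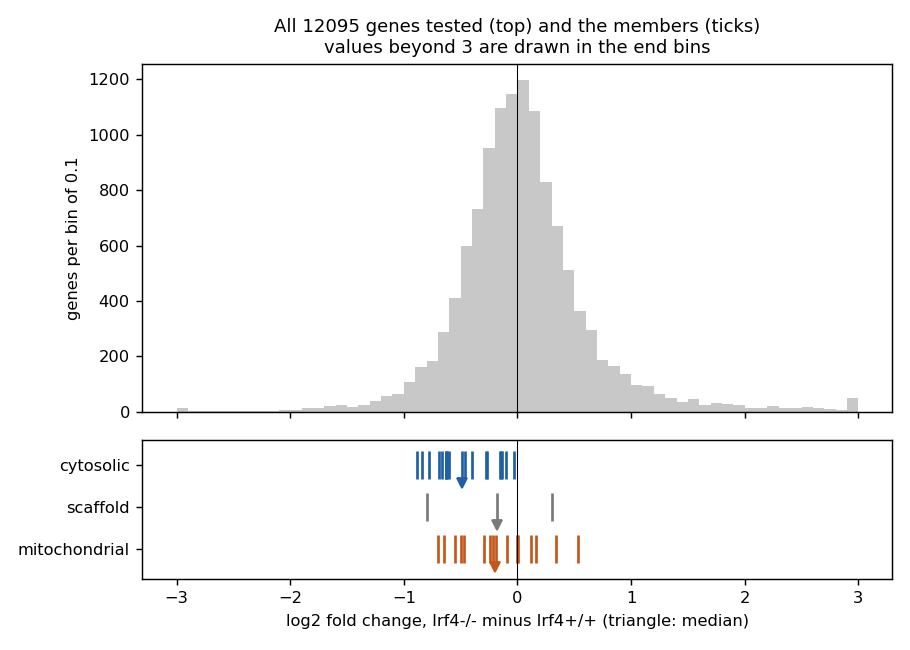
Histogram of the log2 fold changes of all 12095 genes tested, with the members of each compartment drawn as ticks and their median as a triangle on the same axis. The cytosolic ticks run from -0.88 to -0.03 while the bulk of genes is centred on 0.

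Natural killer and macrophage transcripts, the ribosomal RNA controls and the Actb ratio moved with genotype in these arrays, and their part in the results below was not tested. All 9 tested natural killer markers were called higher, their summed signal being 1294 to 1549 in Irf4+/+ and 11724 to 16129.6 in Irf4-/- arrays. Of 8 tested macrophage and monocyte markers 5 were higher (summed over 10 markers, 545 to 675 against 1847 to 2051), with Cd14 and Itgam dim in both genotypes, and of 5 tested granulocyte markers 3 were higher (139 to 224 against 650.0 to 1099). All 7 matched B cell markers, Cd79a, Cd79b and Ms4a1 among them, passed the filter and were higher in Irf4-/- samples, while the T cell genes Cd3d, Cd3e, Cd3g and Cd4 were under the filter and Cd5, which some B cells also carry, rose. The 6 plasma cell markers, Irf4 among them, fell. Of 3 dendritic cell markers tested 2 rose and Flt3 fell, and the 2 tested erythroid or platelet and the 2 tested stromal markers were not called. The 3 control probe sets of 18S ribosomal RNA were 3.00-fold (69.0 ± 20.2 against 207.1 ± 66.1, SD, n = 5), 3.92-fold and 4.31-fold higher in Irf4-/- arrays (exact two-sided permutation p = 0.00794 each, the smallest that 5 against 5 can give). The ratio of 3′ to 5′ control signal of Actb, a sign of RNA quality, was 1.15 ± 0.0259 in Irf4+/+ and 1.10 ± 0.0227 in Irf4-/- arrays (SD, n = 5, exact permutation p = 0.0238), and that of Gapdh 0.856 ± 0.0269 and 0.859 ± 0.0404 (exact permutation p = 0.873).

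Among the cytosolic enzymes, those for isoleucine, glycine, cysteine and asparagine fell furthest. Iars, which charges the isoleucine tRNA, gave signals of 3163, 3082, 2962, 3109 and 2537 in Irf4+/+ replicates 1 to 5 and 1661, 1668, 1514, 1630.5 and 1559 in Irf4-/- replicates 1 to 5. Every Irf4-/- value lay far below the lowest Irf4+/+ value, that of replicate 5, and the fall was 1.84-fold (log2 fold change -0.88, SE 0.0628, adjusted p = 7.53e-09). Iars ranked 458 from the bottom among the 12095 genes, and its second probe set gave a log2 fold change of -0.88. Gars, the glycine enzyme of both cytosol and mitochondria, gave 3336, 3620.5, 3446, 3407 and 3514 in Irf4+/+ and 1976, 1746, 1952, 1959 and 2067 in Irf4-/- replicates 1 to 5. The genotypes did not overlap and Gars fell 1.78-fold (log2 fold change -0.84, SE 0.0532, adjusted p = 1.76e-09). Cars, the cysteine enzyme, read 743, 775, 897, 758 and 847 in Irf4+/+ and 463, 476, 451, 452 and 477 in Irf4-/- replicates 1 to 5. Its Irf4-/- arrays were close together, all under the lowest Irf4+/+ array, and Cars fell 1.72-fold (adjusted p = 5.50e-08). For Nars, the asparagine enzyme, the signals were 3790.4, 3475, 3359, 3722 and 3448 in Irf4+/+ and 2233, 2154, 2143, 2249 and 2227 in Irf4-/- replicates 1 to 5. Nars fell 1.61-fold (adjusted p = 8.11e-09), with a second probe set at -0.69.

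The enzymes for histidine, tyrosine, threonine and leucine formed the next tier. Hars, the histidine enzyme, gave 4922, 4717, 4277, 4161 and 3977 in Irf4+/+ and 2923, 2745, 2756, 2563 and 2926 in Irf4-/- replicates 1 to 5. The genotypes were well apart, Hars fell 1.58-fold (log2 fold change -0.66, SE 0.0634, adjusted p = 2.52e-07), and a second probe set gave -0.55. Yars, which charges the tyrosine tRNA, read 964, 1045, 1039, 925 and 954 in Irf4+/+ and 614, 586, 676, 674 and 619 in Irf4-/- replicates 1 to 5. No Irf4-/- array reached the Irf4+/+ range, and the fall was 1.55-fold (adjusted p = 4.04e-07). Signals of Tars, the threonine enzyme, were 1692, 1697, 1674, 1733 and 1608 in Irf4+/+ and 1119, 977, 1106, 1064 and 1155 in Irf4-/- replicates 1 to 5. They separated the genotypes as cleanly, with a 1.55-fold fall (adjusted p = 1.01e-07). Lars, the leucine enzyme, which also serves as a leucine sensor for mTORC1 signalling, gave 2228, 2403, 1949, 2333 and 2019.5 in Irf4+/+ and 1442, 1424, 1413, 1366 and 1428 in Irf4-/- replicates 1 to 5. Its Irf4-/- arrays were nearly level while its Irf4+/+ arrays varied more, and Lars fell 1.54-fold (adjusted p = 3.66e-07).

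**Figure D3:**
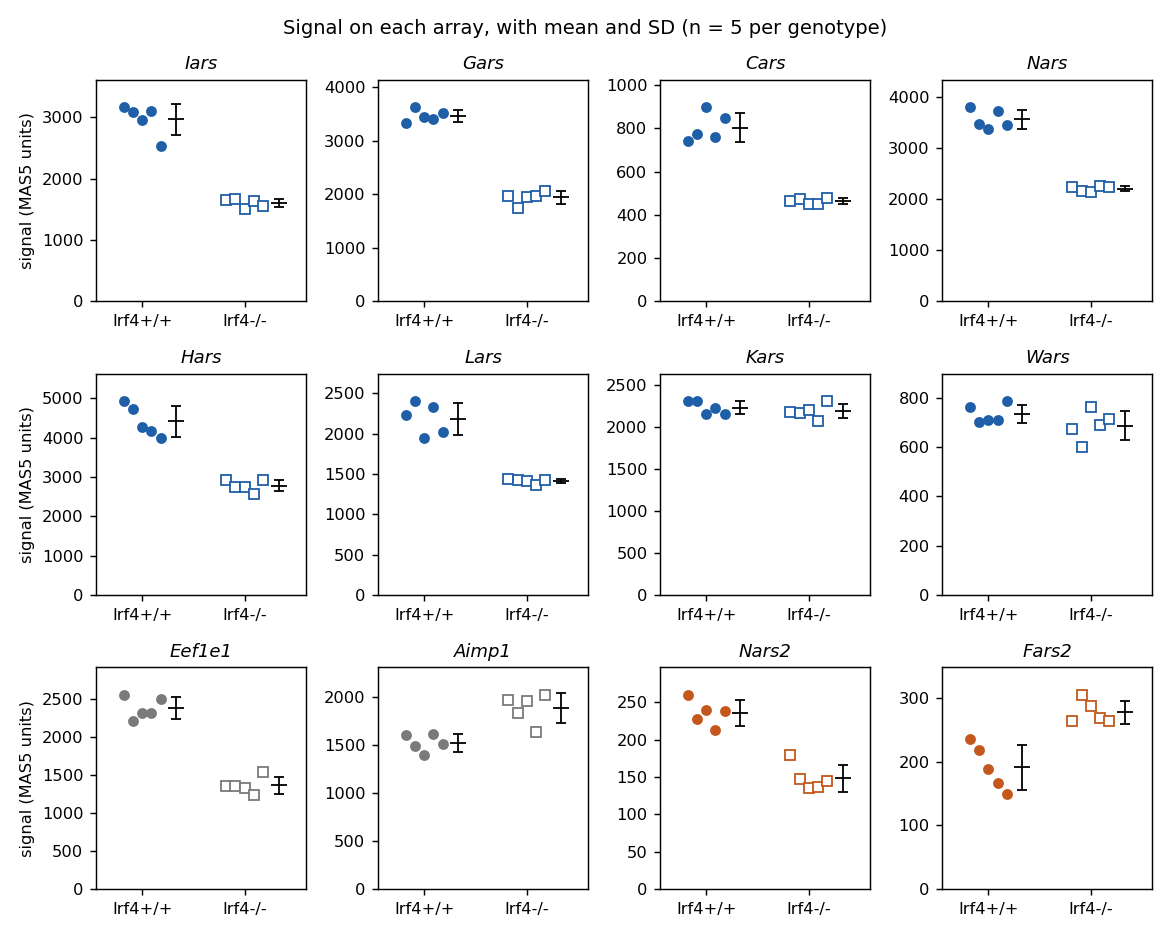
Signal in MAS5 units on each of the 5 Irf4+/+ (filled circles) and 5 Irf4-/- (open squares) arrays for 12 members (blue cytosolic, grey scaffold, orange mitochondrial), with the mean and SD beside the points and a vertical axis from 0. Iars, Gars, Cars, Nars, Hars, Lars, Eef1e1 and Nars2 are lower in every Irf4-/- array, Kars and Wars overlap between genotypes, and Aimp1 and Fars2 are higher in every Irf4-/- array.

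Smaller cytosolic falls were found for 8 further genes. Farsb and Farsa encode the subunits of the phenylalanine enzyme: Farsb fell from 2202 ± 132 to 1446 ± 84.4 (1.52-fold, adjusted p = 3.02e-07) and Farsa from 706 ± 50.8 to 538 ± 77.9 (1.32-fold, adjusted p = 0.0025; SD, n = 5). Another Farsb probe set, dimmer at a mean of 107 in Irf4+/+ and 183 in Irf4-/-, ran in the reverse direction. It was at 0.76 on the log2 scale (adjusted p = 0.00161 over all probe sets). With it alone, once probe sets that can bind several transcripts were left out, Farsb was called higher. The remaining Farsb probe sets were brighter than this one and negative. One was called lower at -0.48 (mean 1630 to 1168) and the other was not called at -0.16 (mean 585 to 525). The 3 other Farsa probe sets were positive and not called, and were dimmer, with group means from 52.7 to 132. Without the shared probe sets Farsa was at 0.19 and not called. Sars, the serine enzyme, fell 1.38-fold from 2643 ± 160.0 to 1912 ± 35.3, and Qars, the glutamine enzyme, 1.40-fold from 1850.2 ± 328 to 1310.5 ± 174, with Irf4-/- replicate 1 inside the Irf4+/+ range. Without the shared probe sets Qars was at -0.50 and not called, on a dim probe set (mean 38.5 in Irf4+/+ and 26.7 in Irf4-/-). A brighter Qars probe set gave -0.30 and was called lower (mean 1486 to 1215). Another gave 0.08 and was not called (mean 451.5 to 476.5). Rars, the arginine enzyme, fell 1.21-fold from 1999 ± 83.7 to 1655 ± 123 (adjusted p = 0.00103), with its genotypes apart. Mars1, the methionine enzyme, fell 1.20-fold from 2063 ± 182 to 1714 ± 144 (adjusted p = 0.00518), with its highest Irf4-/- array just inside the Irf4+/+ range.

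Eprs and Aars were called lower by small margins. Eprs, a fused enzyme that charges both glutamate and proline tRNAs, fell from 2572 ± 129 to 2307 ± 51.3 (1.11-fold, adjusted p = 0.0162), and with quantile normalization its call was lost (adjusted p = 0.083, where the alternatives ranged from 0.000278 to that value). Its probe sets disagreed on the size: one gave -0.62 (adjusted p = 8.78e-08) another -0.38 (adjusted p = 0.0361) and the last -0.10 (adjusted p = 0.301). Aars, the alanine enzyme, fell from 2441 ± 64.5 to 2213 ± 113 (1.10-fold, adjusted p = 0.0281). That call was lost with quantile normalization, without a variance trend, and without Irf4+/+ replicate 1, 3 or 4 or Irf4-/- replicate 3, 4 or 5. Over all alternatives the adjusted p of Aars lay between 0.00521 and 0.0927. A second Aars probe set gave -0.27 (adjusted p = 0.00895).

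Kars, Wars and Vars did not pass the test. Kars, the lysine enzyme, is like Gars a gene that serves both compartments, and its signals were 2305, 2306, 2152, 2228 and 2160.0 in Irf4+/+ and 2184, 2163, 2202, 2073 and 2306 in Irf4-/- replicates 1 to 5. The genotypes overlapped (log2 fold change -0.03, 95% interval -0.13 to 0.08), and with quantile normalization the sign turned to 0.01. Wars, the tryptophan enzyme and a well known interferon-inducible gene, read 763, 702, 709, 707 and 785 in Irf4+/+ and 672, 598, 761, 688 and 712 in Irf4-/- replicates 1 to 5. The genotypes overlapped here too (log2 fold change -0.10, 95% interval -0.25 to 0.05), and its 3 other probe sets were between -0.09 and 0.04. Vars, the valine enzyme, varied widely within each genotype, at 2116 ± 351 in Irf4+/+ and 1914 ± 240.4 in Irf4-/- (SD, n = 5; log2 fold change -0.14, 95% interval -0.36 to 0.09).

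The scaffold proteins of the multi-synthetase complex diverged. Eef1e1 gave 2555, 2206, 2317, 2319 and 2502 in Irf4+/+ and 1361, 1362, 1329.5, 1231 and 1539 in Irf4-/- replicates 1 to 5. All its Irf4-/- arrays were under the Irf4+/+ arrays and it fell 1.74-fold (log2 fold change -0.80, SE 0.0639, adjusted p = 2.89e-08). Aimp1, whose product is also released as a cytokine, read 1611, 1494, 1393, 1617 and 1515 in Irf4+/+ and 1976, 1832, 1962, 1638 and 2024 in Irf4-/- replicates 1 to 5. Each Irf4-/- array was above each Irf4+/+ array, if only just for replicate 4, and Aimp1 rose 1.23-fold (log2 fold change 0.30, SE 0.0657, adjusted p = 0.00111). Aimp2, which holds the complex together, gave 1764, 1644, 1494, 2016 and 1788 in Irf4+/+ and 1712, 1395, 1535, 1403 and 1600.1 in Irf4-/- replicates 1 to 5. The groups overlapped on this probe set (log2 fold change -0.18, adjusted p = 0.066), while a second probe set fell by 0.41 on the log2 scale (adjusted p = 0.00013). Aimp2 was called lower under 6 of 22 alternatives, among them those without Irf4+/+ replicate 3 or Irf4-/- replicate 1, and its adjusted p lay between 8.37e-05 and 0.189 over them.

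Sorting the cytosolic enzymes by what is known of them gave the following counts and medians. Over all genes tested 24.2% were called lower, and 8.47% fell at least 1.5-fold. Of 7 enzymes inside the complex (Eprs, Iars, Kars, Lars, Mars1, Qars and Rars) 6 fell, with a median of -0.27, and of 12 outside it 10 fell, with a median of -0.62. Falls of at least 1.5-fold numbered 2 inside and 7 outside. Of 12 known ATF4 targets 11 fell (median -0.63), and of the 7 other cytosolic enzymes 5 fell (median -0.40). By structural class, 8 of 10 class I enzymes fell (median -0.38) and 8 of 9 class II enzymes (median -0.60). These splits of few genes are descriptions, and the differences between subsets were not tested. The genes with the response-element core in the windows shown above were not alike in size: Iars, Gars, Tars and Yars fell 1.84-fold, 1.78-fold, 1.55-fold and 1.55-fold, and Aars 1.10-fold.

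Of the mitochondrial synthetase transcripts, those for asparagine, tyrosine and leucine fell under every alternative in which they could be tested. Nars2, the mitochondrial asparagine enzyme, gave 260.0, 228, 240.0, 213 and 239 in Irf4+/+ and 179.7, 148, 136, 136 and 144 in Irf4-/- replicates 1 to 5. The genotypes were apart and Nars2 fell 1.56-fold (log2 fold change -0.64, SE 0.0983, adjusted p = 4.28e-05). Yars2, for tyrosine, read 342, 315, 303, 271 and 291 in Irf4+/+ and 215, 168, 200.4, 205 and 247 in Irf4-/- replicates 1 to 5. It fell 1.46-fold (adjusted p = 0.000265), again without overlap, and its second probe set gave -0.66. Lars2, for leucine, had signals of 615, 522, 523, 460.3 and 482 in Irf4+/+ and 415, 366, 364, 332 and 388 in Irf4-/- replicates 1 to 5. No Irf4-/- array reached the Irf4+/+ range, the fall was 1.38-fold (adjusted p = 0.000232), and a second probe set gave -0.62. Nars2 and Lars2 were called lower under all 22 alternatives and Yars2 under the 21 in which it was tested. Both Yars2 probe sets can bind several transcripts by their names, so Yars2 has no value where such probe sets were left out.

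Mars2 and Iars2 were called near the threshold. Mars2, the mitochondrial methionine enzyme, was not far above the filter level of 26.1, at 51.2, 46.6, 56.3, 59.9 and 61.4 in Irf4+/+ and 44.1, 33.6, 34.4, 40.7 and 31.6 in Irf4-/- replicates 1 to 5. It fell 1.41-fold (adjusted p = 0.0344), and the call was lost without the filter, without Irf4+/+ replicate 3, 4 or 5 and without Irf4-/- replicate 2, 3 or 5. Its adjusted p lay between 0.00194 and 0.0769 over the alternatives. Iars2, for isoleucine, read 312, 330.5, 303, 335 and 301 in Irf4+/+ and 259, 262, 300.0, 301 and 241 in Irf4-/- replicates 1 to 5. The lowest Irf4+/+ and the highest Irf4-/- array were nearly equal, and the 1.16-fold fall (adjusted p = 0.0408) was lost without Irf4+/+ replicate 1, 2 or 4, without Irf4-/- replicate 1, 2 or 5, without the filter and when its probe sets were averaged. For Iars2 the adjusted p lay between 0.0231 and 0.459.

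Fars2 ran the other way. This gene for the mitochondrial phenylalanine enzyme, a single chain unlike its cytosolic counterpart, gave 235, 218, 188, 166 and 149 in Irf4+/+ and 264, 304, 287, 268 and 264 in Irf4-/- replicates 1 to 5. Every Irf4-/- array was above every Irf4+/+ array and Fars2 rose 1.45-fold (log2 fold change 0.54, SE 0.113, adjusted p = 0.000874). A second probe set gave 0.33 (adjusted p = 0.107). Both Fars2 probe sets can bind more than 1 transcript by their names, be these of the same gene or of others. Fars2 therefore has no value where such probe sets were left out.

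The other 10 mitochondrial genes were not called, with log2 fold changes from -0.70 to 0.34. Aars2, for alanine, had the lowest value of them but its Irf4-/- arrays ran from 19.1 to 121 against 94.2 to 131 (95% interval -1.37 to -0.04, adjusted p = 0.0778), and it was called lower with quantile normalization and without Irf4-/- replicate 2 or 5 (adjusted p between 0.0224 and 0.175 over the alternatives). Sars2, for serine, averaged 156 ± 40.7 in Irf4+/+ and 124 ± 24 in Irf4-/- samples, and Vars2, for valine, 81.2 ± 19.1 in Irf4+/+ and 73.6 ± 33.7 in Irf4-/-. Rars2, for arginine, averaged 1104 ± 130.2 in Irf4+/+ and 977 ± 172 in Irf4-/-, and Cars2, for cysteine, 228 ± 28.4 in Irf4+/+ and 214 ± 28.2 in Irf4-/-. Group means were nearest each other in Hars2, for histidine (243 ± 38.9 in Irf4+/+ and 239 ± 11.1 in Irf4-/-), and Pars2, for proline (278 ± 31.5 in Irf4+/+ and 278 ± 21.1 in Irf4-/-), whose 95% intervals were -0.23 to 0.22 and -0.19 to 0.19. A second Hars2 probe set, the one left when shared probe sets were set aside, gave -0.35 (adjusted p = 0.084) and was not called. Positive values were found for Wars2, for tryptophan (0.12), Tars2, for threonine (0.16), and Ears2, for glutamate (0.34, 95% interval -0.03 to 0.71). A second Tars2 probe set had the other sign, at -0.11, and was not called. Tars2 was called higher without Irf4+/+ replicate 5 (adjusted p = 0.0365, and 0.0365 to 0.85 over its alternatives), and Ears2 when its probe sets were averaged (adjusted p = 0.038, and 0.038 to 0.303). The intervals of Aars2, Sars2 and Vars2 extend below the cytosolic median of -0.49, so these intervals include falls of that size.

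For 14 amino acids a cytosolic and a mitochondrial enzyme were set side by side, the fused Eprs being paired with Ears2. Phenylalanine and proline were also measured in both compartments but were not among these pairs. For phenylalanine the log2 fold changes were -0.40 for Farsa and -0.60 for Farsb, both called lower, and 0.54 for Fars2, called higher. For proline they were -0.16 for Eprs, called lower, and 0.00 for Pars2, not called. The cytosolic log2 fold change was the more negative in 11 of the 14 pairs, and both fell in 5: isoleucine, leucine, methionine, asparagine and tyrosine. Taken singly, 24.2% of all genes tested were called lower. Among the 14 pairs the gap was widest for threonine (-0.63 for Tars, 0.16 for Tars2) and cysteine (-0.78 for Cars, -0.09 for Cars2). The phenylalanine genes, outside these pairs, lay further apart. Asparagine (-0.69 and -0.64) and tyrosine (-0.63 and -0.55) had nearly equal values in both compartments. Alanine, methionine and valine had the more negative value in the mitochondrial enzyme. The difference within a pair was not tested.

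**Figure D4:**
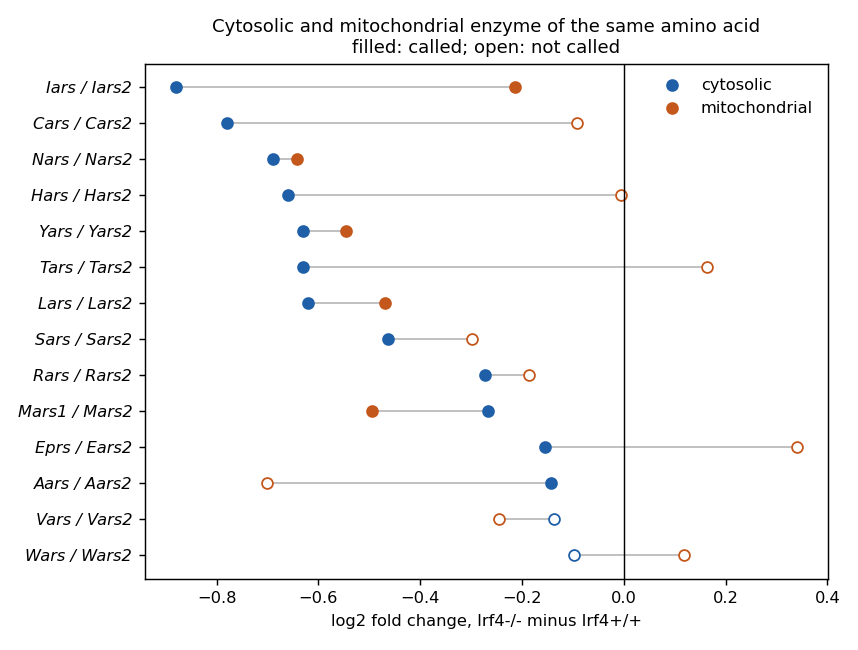
Log2 fold change (Irf4-/- minus Irf4+/+) of the cytosolic and the mitochondrial synthetase of 14 amino acids, joined by a line, with filled points for called and open points for not called genes. In 11 pairs the cytosolic point lies left of the mitochondrial one.

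Most genes of the amino acid response also fell. Of 27 tested genes of this list, which is controlled largely by ATF4, 22 fell, 1 rose and 4 were not called, with a median log2 fold change of -0.64. Called lower were 81.5%, beside 24.2% of all genes tested. Atf4 itself read 3666, 3196, 3287, 3562 and 3595 in Irf4+/+ and 2618, 2486, 2521, 2354 and 2516 in Irf4-/- replicates 1 to 5. The genotypes were apart, and Atf4 fell 1.38-fold (adjusted p = 1.82e-06). Gpt2, a transaminase that makes alanine, fell 4.18-fold from 399 ± 55.6 to 88.8 ± 5.66, Psat1, of serine synthesis, 2.05-fold, the stress-induced mTORC1 inhibitor Ddit4 1.99-fold and the asparagine synthetase Asns 1.73-fold (adjusted p at most 1.23e-08). Atf5, a transcription factor related to ATF4, rose 2.32-fold from 409 ± 102 to 939.9 ± 70.3 and was named after its value was seen. Eif2ak4 encodes GCN2, the kinase that senses uncharged tRNA, and was not called, at 282, 298, 264, 297 and 284 in Irf4+/+ and 289.8, 247, 262, 312 and 245 in Irf4-/- replicates 1 to 5. The groups overlapped (log2 fold change -0.08, adjusted p = 0.499), but without shared probe sets the value was 0.55 and called higher, so its direction is uncertain. The growth regulator Myc fell 2.19-fold (adjusted p = 1.44e-10), with signals of 2646, 2607, 2608, 2543 and 2781 in Irf4+/+ and 1366, 1147, 1141, 1164 and 1206 in Irf4-/- replicates 1 to 5. Its lowest Irf4+/+ array was above its highest Irf4-/- array.

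The response-element core was also in 7 of 29 promoter windows of the amino acid response genes, beside the 3.97% of all windows given above. These were the windows of Asns, Atf3, Chac1, Pck2 and Trib3, all called lower, of Nupr1, not called, and of Slc7a11, not tested.

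Upstream of charging, genes that mature and modify tRNA were called lower more often than higher. Of 19 tested processing genes 9 fell, 1 rose and 9 were not called (median -0.12). The shares were 47.4% lower and 5.26% higher, beside 24.2% and 23.6% over all genes tested. Rpp14, a subunit of the RNase P that trims tRNA 5′ ends, fell 1.95-fold, Trnt1, which adds the terminal CCA to which amino acids are attached, 1.86-fold, the tRNA exporter Xpot 1.79-fold and the RNA ligase complex helicase Ddx1 1.46-fold (adjusted p at most 5.48e-07). Pop4, an RNase P subunit named after its value was seen, rose 1.15-fold (adjusted p = 0.0225), a call that was lost with median centring and without Irf4+/+ replicate 4 or Irf4-/- replicate 5. Of 34 tested modification genes 15 fell (44.1%), 3 rose (8.82%) and 16 were not called (median -0.23). The pseudouridine synthase Pus7 fell 2.32-fold from 554 ± 40.9 to 234 ± 15.5 and the cytosine methyltransferase Nsun2 2.01-fold from 2865 ± 242 to 1421 ± 158, while Cdk5rap1, a mitochondrial tRNA-modifying enzyme, rose 1.98-fold (SD, n = 5). Trmt6, of the adenosine methyltransferase, fell 1.44-fold.

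Downstream of charging, the cytosolic release factors Etf1 and Gspt1 and several mitochondrial factors fell. Of 15 tested genes 7 fell, 1 rose and 7 were not called (median -0.11). The shares were 46.7% lower and 6.67% higher, beside 24.2% and 23.6% over all genes tested. Etf1 and Gspt1, which end translation, fell 1.65-fold and 1.65-fold (adjusted p at most 9.82e-08), and Gfm1, a mitochondrial elongation factor, 1.51-fold, although without shared probe sets Gfm1 was at -0.02 and not called. The mitochondrial factors Tufm, Tsfm and Gfm2 also fell, 1.34-fold, 1.28-fold and 1.22-fold (adjusted p at most 0.0189 in limma). Tufm, Tsfm and Gfm2 were named after their values were seen. The mitochondrial release factor Mtrf1l, named after its value was seen, was not called, at a log2 fold change of 0.09. The cytosolic elongation factors Eef1a1, Eef1b2, Eef1d and Eef2 were not called, with log2 fold changes of -0.01, 0.02, -0.09 and 0.01, and were named after their values were seen. Eif5a, also named after its value was seen, was called lower by a small margin (log2 fold change -0.11, adjusted p = 0.0408 in limma), with its genotypes apart. Eef1akmt1, a methyltransferase that acts on EEF1A, rose 2.32-fold. Of 13 accessory charging factors 4 fell, 1 rose and 8 were not called (median -0.19). The lower share of 30.8% is near the 24.2% over all genes tested, and 2 fell without Irf4+/+ replicate 4 or without Irf4-/- replicate 2 or 3. Among these factors the proofreading enzyme Dtd1, which clears D-amino acids from tRNA, fell 1.73-fold, Aarsd1, an alanine editing protein, 1.32-fold, and Qrsl1, of the amidotransferase that makes glutaminyl-tRNA in mitochondria, 1.23-fold, while Prorsd1, a homologue of proline editing domains, rose 1.57-fold. The Qrsl1 call was lost without a variance trend, with the mean of its probe sets, without shared probe sets and without Irf4+/+ replicate 1 or 4 or Irf4-/- replicate 2 or 3. Of 23 genes of RNA polymerase III, which transcribes tRNA genes, 9 fell and 4 rose (median -0.15). The shares were 39.1% lower and 17.4% higher, beside 24.2% and 23.6% over all genes tested. Among the called genes were the subunits Polr3k (1.99-fold lower) and Polr3e (1.34-fold lower), and the initiation factors Gtf3a (1.36-fold lower) and Brf1 (1.47-fold higher). The list also holds Maf1, a regulator of the polymerase, which was among the 4 that rose (1.14-fold) and was named after its value was seen. The natural killer, macrophage, 18S and Actb values given above differed between the same samples, and their part in these list results was not tested.

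**Figure D5:**
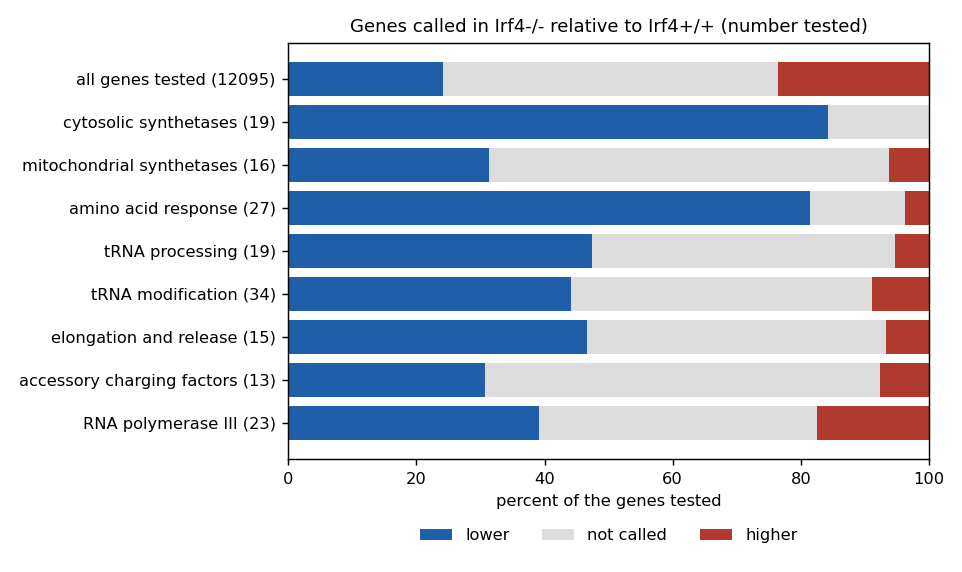
Percent of the tested genes of each list called lower, not called or called higher in Irf4-/- relative to Irf4+/+ samples (limma, adjusted p under 0.05), with the number tested in parentheses. The cytosolic synthetases and the amino acid response have the longest lower segments, 84.2% and 81.5%, beside 24.2% for all genes tested.

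Counted by probe set, lower calls again outnumbered higher ones. The 38 genes had 76 probe sets, of which 71 passed the filter, and 34 were called lower, 3 higher and 34 were not called in a fit over all 22238 probe sets, where 21.7% were called lower and 21.3% higher. Of the 33 tested probe sets that did not stand for their gene, 24 had the sign of the one that did, 12 were called lower and 1, the Farsb probe set named above, higher. A further probe set shared between Aars and another gene was not used.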

How the data were processed

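The authors deposited a linear signal intensity for each probe set of 10 1-colour Affymetrix arrays. Per the submitters' processing notes MAS5 produced it, from biotinylated cRNA of 6 ug total RNA, per the labels' protocols. No version or scaling target is stated there, but a mean trimmed of 2% at each end was 250.0 on every array, so the arrays were taken as scaled by the authors. Array number, 5 per genotype, limits the precision. Array medians were 37.2 to 45.0 signal units, and no arrays were identical.

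There were 45101 probe sets, including 64 controls. GEO's platform annotation paired 34945 with a single gene symbol and 932 with several, and the remaining 9160 stay unnamed here. Gene IDs brought symbols up to date through a RefSeq table of assembly GRCm38.p6 (34741 matched). Values became log2(signal + 7.9), with 7.9 the 20th percentile of all values, and genes under 26.1, the 40th percentile, on average were left out. Genotype was fitted in limma 3.58.1 under R 4.3.3 (eBayes with a trend, two-sided, Benjamini-Hochberg over 12095 genes). Promoter letters are RefSeq's. The procedure was tested on simulated data.

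Genes given with values in every array are Irf4, Myc, Atf4, Eif2ak4, Gars, Kars, Wars, the scaffold genes, and the called members with the largest changes (up to 8 cytosolic and 6 mitochondrial) or against their compartment's median; up to 4 genes of each other list are those with the smallest p. The members and lists were chosen with earlier results of these data known. Alternatives were other pseudocounts, filters, scalings, variance models, array weights, a replicate block, other probe set choices and each array left out.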

Additional observations from a re-analysis of the deposited data

Results flagged for a closer look

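In 84 groups of 5 arrays (42 genes in each genotype) the lowest or highest array was compared with the spread of the others by Dixon's criterion, which chance alone meets in about 1 of 20 groups, and 3 groups met it. Farsa, a subunit gene of the cytosolic phenylalanine enzyme, read 402.9 in Irf4-/- replicate 5, while the other Irf4-/- arrays read 541.3 to 595.8. Nars2, of the mitochondrial asparagine enzyme, read 179.7 in Irf4-/- replicate 1, above 135.6 to 148.0 in the others, and still below every Irf4+/+ array. Myc read 1365.9 in Irf4-/- replicate 1, above 1141 to 1206 in the others. Farsa and Nars2 kept their calls with each array left out in turn.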

How the results depend on the processing

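Of the 24 called members 17 kept their direction and call under all of the 22 alternatives in which they could be tested; the others were Aars, Eprs, Farsa, Farsb, Iars2, Mars2 and Qars. Leaving out probe sets that can bind several transcripts gave 12 of 18 tested cytosolic genes called lower, against 16 of 19 in the main fit. That choice also gave 1 cytosolic gene called higher, 2 scaffold genes lower and 0 mitochondrial genes higher, since Fars2 then has no probe set. With that choice 5 RNA polymerase III genes were lower and the cytosolic median was -0.39. Without those probe sets Farsb was at 0.76, Farsa at 0.19, Hars2 at -0.35, Wars at 0.0422 and Eif2ak4 at 0.55. The mean of a gene's probe sets gave 14 cytosolic genes lower, 2 scaffold genes lower and 2 mitochondrial genes higher. It also gave 2 accessory factors lower and 2 higher, and a cytosolic median of -0.32. Farsa was then at 0.0643, Eif2ak4 at 0.24, and Farsb at -0.12 and not called. Median centring gave 2 scaffold genes lower, 0 tRNA processing genes higher and Pars2 at -0.0217. Array weights gave 2 scaffold genes lower and Pars2 at -0.0109. Quantile normalization gave 14 cytosolic genes lower, Pars2 at -0.0291 and Kars at 0.0133. That normalization moved the median of all genes to -0.04. With no filter 3 mitochondrial genes were lower. The cause of these shifts was not tested, except that fewer probe sets enter when shared ones are left out.

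With each array left out in turn, lower scaffold genes numbered 1 to 2, lower mitochondrial genes numbered 3 to 5, higher mitochondrial genes numbered 1 to 2, lower accessory factors numbered 2 to 4, higher tRNA processing genes numbered 0 to 2. Under the same alternatives the cytosolic median ran from -0.56 to -0.43, the mitochondrial median from -0.22 to -0.10, Hars2 from -0.0928 to 0.0624, Pars2 from -0.0477 to 0.0603 and Vars2 from -0.41 to 0.10. Tars2 was called higher without Irf4+/+ replicate 5, Aimp2 lower without Irf4+/+ replicate 3 or Irf4-/- replicate 1, and the mitochondrial median of -0.10 was reached without Irf4-/- replicate 2. Vars2 was at 0.10 without Irf4-/- replicate 2.

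Same-numbered arrays had little deviation in common: their deviations correlated between -0.04 and 0.05. Such values cannot tell whether the samples were collected in pairs. With a replicate block 5706 genes were called against 5784, Aars2 was called lower (adjusted p = 0.02765, against 0.0224 to 0.175 over its alternatives), and Mars2 (0.07045) and Iars2 (0.05438) were not called. The block changed no other member's call. With 5 arrays a genotype, small changes of dim members are the least certain.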
